A study of Mus musculus with 6 samples.

Results

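The genes described here are 10 components of the machinery that removes maternal mRNA from the early mouse embryo: Btg4, Cnot6l, Cnot7, Cnot1, Cnot3, Zfp36l2, Pabpn1l, Dcp1a, Dcp2 and Ythdf2. They were taken by symbol from 48967 gene identifiers in the files, and 10 of 10 were found and were among the 16020 genes that passed a filter on low counts. RNA sequencing was done on 2-cell embryos. Pools of 3 embryos gave 3 libraries from controls and another 3 from delipidated embryos. All embryos were wild type (labelled wt), of strain F1 (C57Bl/10 X CBA/H), and were grown in vitro in KSOM without fatty acids from 0.5 to 2.0 dpc, labelled day 2. Delipidated embryos had been centrifuged as zygotes in medium with cytochalasin B, and their lipid droplets had then been drawn off with a pipette through an opening in the zona pellucida. Controls came from zygotes that kept their lipid droplets, with no sham manipulation named in the labels, so lipid removal and the handling that went with it cannot be told apart. Embryos of several females had been mixed and divided at random between the groups, so the p-values below measure the spread between pools of a single collection.

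An oocyte stops transcribing before it matures, and the embryo starts life on mRNA that the mother stored. Much of that mRNA is destroyed between meiotic maturation and the activation of the embryo's own genome. Destruction usually begins with shortening of the poly(A) tail by the CCR4-NOT complex, which adapter proteins bring to their target mRNAs, and goes on with removal of the cap and digestion of the body of the mRNA.

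The libraries held 12164963, 16165958 and 12980787 counts on genes in controls 1 to 3 and 20059460, 16332103 and 14683741 in delipidated pools 1 to 3. At least 1 count was found for 22855, 22437 and 20582 genes in controls 1 to 3 and for 17091, 19408 and 20158 genes in delipidated pools 1 to 3. Every control library thus had more genes with a count than any delipidated library, and the delipidated library with the most counts had the fewest genes. Mitochondrial genes took 3.72 to 5.06% of counts in controls and 4.08 to 5.35% in delipidated pools, so these ranges overlapped. The part of these differences in the results below was not tested.

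The decay genes were present in both groups at levels that overlapped, and none was called different. With edgeR's quasi-likelihood test and Benjamini-Hochberg adjustment over 16020 genes, 0 of the 10 genes passed an adjusted p of 0.05 with a log2 fold change beyond 1, against 0% of all genes tested. The same edgeR test gave an unadjusted p under 0.05 for 0 of the 10 genes, beside 463 of all genes tested (1.15% of them higher and 1.74% lower in delipidated embryos). DESeq2 without a filter called 9 genes higher and 40 lower, and edgeR without a filter 5 higher and 25 lower, with 0 of the 10 decay genes among them in either case. For 0 of the 10 genes did the 3 delipidated libraries lie wholly above or wholly below the 3 controls. Over all genes tested, 3.81% were higher without overlap and 5.05% lower, so a count of 0 among 10 genes does not set them apart. The median difference of the 10 genes was 0.05 on the log2 scale, with 6 higher and 4 lower, beside a median of -0.00 over all genes tested. Its sign rested on single pools, since it was -0.13 without delipidated pool 3, -0.04 without control 2 and 0.24 without control 1. With 3 libraries against 3, an exact two-sided permutation test cannot give a p below 0.1. The biological coefficient of variation between pools was 0.663, and a p above the threshold does not show that levels were equal. In pooled embryos, fewer cells that hold an mRNA and less of that mRNA in each cell cannot be told apart.

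Levels of different genes were compared as counts per 1000000 counts of the library (CPM) and per kilobase of exonic length, averaged over the 6 libraries. Btg4 stood first with a level of 582 ± 183 CPM per kb (SD, n = 6), higher than 99.7% of the genes tested. Its level was 5.57 times that of Cnot7, the next gene, and its lowest library was above the highest library of Cnot7. By the exonic part with the most counts of each gene, Btg4 was still first in every library but at only 1.49 to 2.17 times Cnot7, and its range overlapped that of Cnot7. Cnot7 (105 ± 31.7 CPM per kb), Cnot3 (61.7 ± 11.8), Cnot6l (46.1 ± 22), Ythdf2 (43.3 ± 3.78) and Cnot1 (41.6 ± 3.55) formed a middle range in which each overlapped its neighbour. Cnot1 lay clear of Dcp2 in every library, and Dcp2 (19.8 ± 4.7 CPM per kb) and Dcp1a (14.9 ± 2.99) overlapped each other. Dcp1a in turn lay clear of Pabpn1l (4.06 ± 3.37 CPM per kb), which overlapped Zfp36l2 (2.66 ± 1.71), the lowest of the 10. The level of Zfp36l2 was above 44.4% of the genes tested and that of Pabpn1l above 53.3%, so these 2 genes sat near the middle of all genes and the other 8 well above it. Reads that span several short exonic parts appear to be counted in each, and the order depended on the measure in 2 places. By the part with the most counts, Cnot1 lay above Ythdf2, with Ythdf2 at 0.164 to 0.262 times Cnot1, and Dcp1a above Dcp2, with Dcp2 at 0.18 to 0.449 times Dcp1a, each in all 6 libraries. The other genes kept their places in the order of means.

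**Figure D1:**
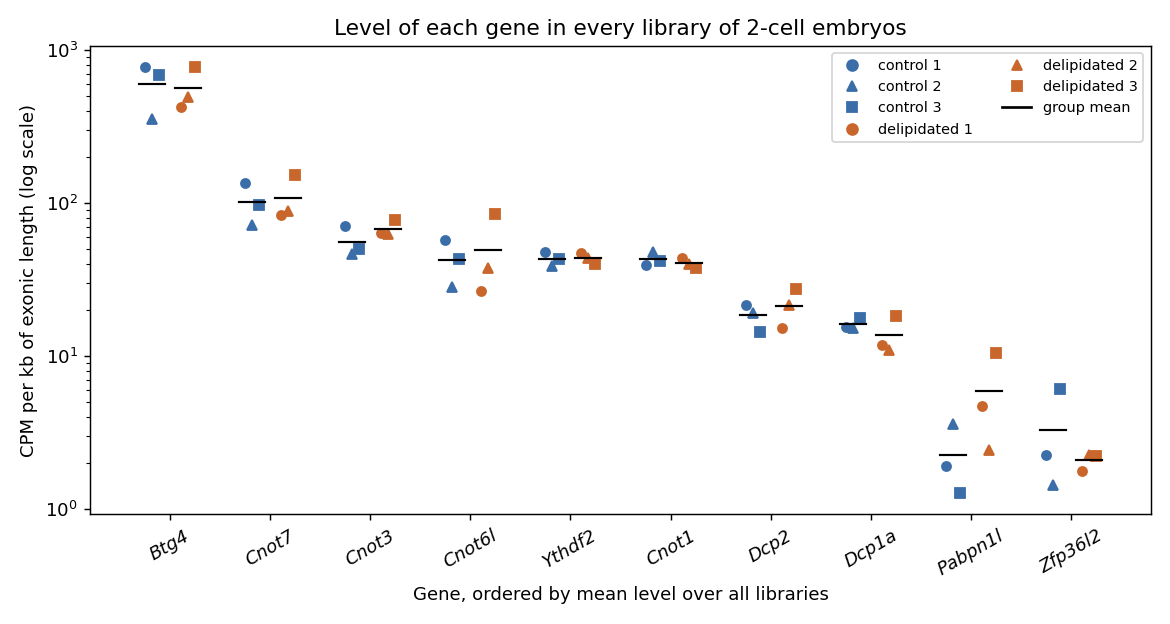
Level of the 10 genes in each of the 6 libraries, as CPM per kb of exonic length on a log axis, with control pools in blue, delipidated pools in orange and a black line at each group's mean (n = 3). Btg4 lies above the other 9 genes in every library, Pabpn1l and Zfp36l2 lie lowest, and the 2 groups overlap for each gene.

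Btg4 encodes an adapter that binds the deadenylase subunit of CCR4-NOT and is required for maternal mRNA clearance at the oocyte-to-embryo transition. Its level was 1971, 901 and 1749 CPM in controls 1 to 3 and 1083, 1256 and 1970 CPM in delipidated pools 1 to 3. The highest value of each group was nearly equal, control 2 was the lowest of the 6, and the groups overlapped almost completely. The difference was a log2 fold change of -0.10 ± 0.28 (SE), with an adjusted p of 1.00 by edgeR's quasi-likelihood test with Benjamini-Hochberg adjustment and p = 0.9 by exact permutation. Its sign rested on single pools, since it was 0.13 without control 1, 0.07 without delipidated pool 1 and -0.40 without delipidated pool 3. Btg4 alone supplied 28.3 to 41% of the summed CPM of the 10 genes. That sum was 4158 ± 925 CPM in controls and 4222 ± 1078 CPM in delipidated pools (SD, n = 3 each), and without Btg4 it was 2617 ± 395 and 2785 ± 609 CPM. In either form, the 2 groups differed by less than the spread between their pools.

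Positions are given on the mm10 build. Cnot6l and Cnot7 encode catalytic subunits, the nucleases that remove the poly(A) tail. Cnot6l was at 590, 289 and 440 CPM in controls 1 to 3 and at 273, 384 and 873 CPM in delipidated pools 1 to 3. Both the lowest and the highest of its 6 values were in delipidated pools, and the highest was 3.2 times the lowest. Cnot7 (ENSMUSG00000031601, chr8:40492540-40515847, minus strand) was at 785, 414 and 567 CPM in controls 1 to 3 and at 487, 516 and 884 CPM in delipidated pools 1 to 3. Delipidated pool 3 was again the highest and control 2 the lowest, while controls 1 and 3 lay above delipidated pools 1 and 2. The log2 fold changes were 0.21 ± 0.38 for Cnot6l and 0.10 ± 0.27 for Cnot7 (SE), with an adjusted p of 1.00 each by edgeR's quasi-likelihood test with Benjamini-Hochberg adjustment. Without delipidated pool 3 both fold changes turned negative, to -0.42 and -0.23, and without control 2 to -0.01 and -0.10, so their sign rested on single pools. By the exonic part with the most counts and with all 6 libraries, Cnot7 was at -0.11 and Cnot6l at 0.24. Of the counts of Cnot7, 19.7% lay on 5 exonic parts shared with a gene of the opposite strand, from which they may not be told apart.

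Cnot1 encodes the scaffold on which CCR4-NOT is assembled, and Cnot3 a subunit of its regulatory NOT module. Cnot1 (ENSMUSG00000036550, chr8:95719451-95807464, minus strand) was at 678, 814 and 714 CPM in controls 1 to 3 and at 750, 687 and 642 CPM in delipidated pools 1 to 3. Its highest value was 1.27 times its lowest, so it was among the steadiest of the 10 genes, and its log2 fold change was -0.09 ± 0.16 (SE). Cnot3 (ENSMUSG00000035632, chr7:3645268-3661109, plus strand) was at 496, 326 and 354 CPM in controls 1 to 3 and at 451, 438 and 545 CPM in delipidated pools 1 to 3. The 3 delipidated pools lay above controls 2 and 3, but control 1 exceeded delipidated pools 1 and 2. The log2 fold change of Cnot3 was 0.29 ± 0.20 (SE), with p = 0.3 by exact permutation and an adjusted p of 1.00 by edgeR's quasi-likelihood test with Benjamini-Hochberg adjustment. All 35 exonic parts of Cnot3 were listed under an identifier joined with that of another gene.

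Zfp36l2, Ythdf2 and Pabpn1l encode RNA-binding proteins. ZFP36L2 binds AU-rich elements and recruits CCR4-NOT, YTHDF2 reads N6-methyladenosine on mRNA, and PABPN1L is a poly(A)-binding protein of oocytes that works with BTG4. Zfp36l2 (ENSMUSG00000045817, chr17:84183931-84187947, minus strand) was at 7.93, 5.02 and 21.5 CPM in controls 1 to 3 and at 6.22, 7.92 and 7.84 CPM in delipidated pools 1 to 3. Control 3 stood far above the other 5 libraries, which lay close together whatever their group. The log2 fold change of -0.65 ± 0.61 (SE) became 0.18 without control 3. Control 3 was also the library with the highest summed level of cumulus and granulosa cell markers, given below.

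Pabpn1l (ENSMUSG00000069867, chr8:122619471-122622739, minus strand) had the largest fold change of the 10 genes and the fewest counts. Its level was 2.28, 4.29 and 1.52 CPM in controls 1 to 3 and 5.58, 2.89 and 12.5 CPM in delipidated pools 1 to 3, from 27, 71 and 20 counts and 113, 47 and 177 counts. Delipidated pools 1 and 3 were above every control, while delipidated pool 2 was below control 2. The log2 fold change was 1.37 ± 0.80 (SE), with p = 0.2 by exact permutation and an adjusted p of 1.00 by edgeR's quasi-likelihood test with Benjamini-Hochberg adjustment, and it ranged from 0.64 to 1.88 when single pools were left out. In control 3 the 20 counts fell on 2 neighbouring parts of the 10 exonic parts, with 10 on each, and in the other libraries on 4 to 8 parts. Reads that span parts appear to be counted in each, so these counts may exceed the number of reads. Ythdf2 (ENSMUSG00000040025, chr4:132184912-132212303, minus strand) was at 219, 175 and 197 CPM in controls 1 to 3 and at 216, 198 and 183 CPM in delipidated pools 1 to 3. Here the 2 groups covered almost the same narrow range, with a highest value 1.25 times the lowest and a log2 fold change of 0.01 ± 0.20 (SE).

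Dcp2 encodes the enzyme that cleaves the cap, and Dcp1a a partner that activates it. Dcp2 (ENSMUSG00000024472, chr18:44380502-44424969, plus strand) was at 187, 167 and 125 CPM in controls 1 to 3 and at 133, 186 and 237 CPM in delipidated pools 1 to 3. Dcp1a (ENSMUSG00000021962, chr14:30479565-30527056, plus strand) was at 87.2, 85.4 and 99 CPM in controls 1 to 3 and at 66.2, 61.4 and 102 CPM in delipidated pools 1 to 3. The lowest Dcp2 value was in a control and the highest in a delipidated pool, while for Dcp1a both extremes were in delipidated pools. The log2 fold changes were 0.21 ± 0.26 for Dcp2 and -0.24 ± 0.27 for Dcp1a (SE), with an adjusted p of 1.00 each by edgeR's quasi-likelihood test with Benjamini-Hochberg adjustment.

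Several of the genes moved together from pool to pool, without regard to group. Over the 6 libraries, log2 CPM of Btg4 had a Pearson r of 0.92 with Cnot7 and 0.89 with Cnot6l, and Cnot6l and Cnot7 had an r of 0.96. Cnot1 ran the other way, with r of -0.86 with Btg4, -0.87 with Cnot6l and -0.89 with Cnot7. These are descriptions over 6 points that share library, depth and scaling. Of the other genes tested, 1.4% had an r with Btg4 at or above that of Cnot7, 2.28% at or above that of Cnot6l, and 3.12% at or below that of Cnot1. In words, control 1 and delipidated pool 3 were high, and control 2 and delipidated pool 1 low, for Btg4, Cnot6l and Cnot7 alike.

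The genes most like Btg4 in this respect were Mpp5 (r of 0.999), Ywhaz (0.998) and Oosp1 (0.996). Oosp1, an oocyte-secreted protein gene, was at 561, 338 and 503 CPM in controls 1 to 3 and at 382, 427 and 570 CPM in delipidated pools 1 to 3. It had the same highs and lows as Btg4 over a narrower range, which follows from its choice by correlation out of all genes tested. Oosp1 is also on the list of oocyte transcripts summed below.

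Marker sums were set beside this pattern. All 14 oocyte transcripts on the list had counts, and their summed level was 2644, 1838 and 2411 CPM in controls 1 to 3 and 2226, 2086 and 2959 CPM in delipidated pools 1 to 3, led by Dppa3 at 838 to 1262 CPM. All 14 genes of the 2-cell activation list had counts too, with sums of 546, 240 and 514 CPM in controls 1 to 3 and 343, 428 and 600 CPM in delipidated pools 1 to 3. Zfp352 and Usp17lc were the highest of them on the mean of the 6 libraries, and Usp17lc exceeded Zfp352 in 3 of the 6 libraries. Both sums were highest in delipidated pool 3 and lowest in control 2, as was Cnot7, and the activation sum ordered the 6 pools as Cnot7 did. Single genes of both lists differed from their sums. Zfp352 was lowest in delipidated pool 1 (42.2 CPM, beside 54.5 CPM in control 2). Dppa3 was lowest in delipidated pool 2 (838 CPM, beside 890 CPM in control 2). The part of these differences between pools in the levels of Btg4, Cnot6l and Cnot7 was not tested.

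**Figure D2:**
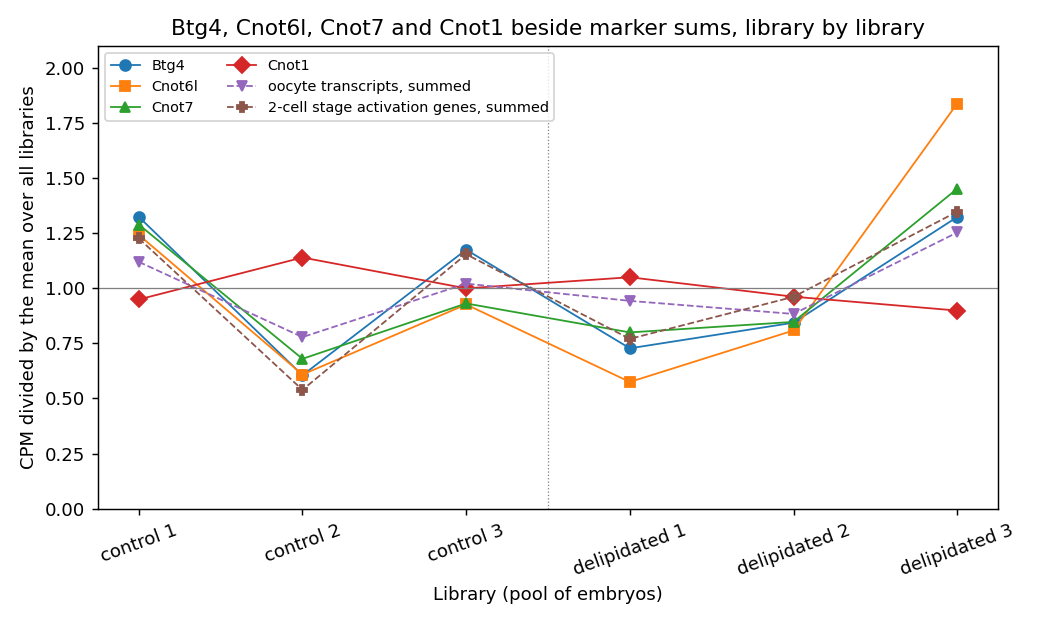
CPM of Btg4, Cnot6l, Cnot7 and Cnot1, and summed CPM of the oocyte and 2-cell activation lists, each divided by its mean over the 6 libraries. Lines join the points of a series only to guide the eye. Cnot6l, Cnot7 and both sums are highest in delipidated pool 3, Btg4 is as high in control 1 (1971 CPM) as in delipidated pool 3 (1970 CPM), and Cnot1 is lowest in delipidated pool 3 (642 CPM).

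Markers of other cells were low apart from Epcam and, in control 3, Cyp11a1. Of 11 cumulus and granulosa cell markers, 9 had counts, with sums of 5.74, 10.3 and 66.8 CPM in controls 1 to 3 and 1.38, 9.58 and 11.9 CPM in delipidated pools 1 to 3, and Ptx3 and Foxl2 were at 0 in all 6 libraries. The high value of control 3 was mostly Cyp11a1 at 49.7 CPM, a gene at 0 to 0.337 CPM elsewhere, and its part in the high Zfp36l2 of that library was not tested. Cumulus cells had been taken off the zygotes with hyaluronidase and washes at collection. The 8 leukocyte markers summed to 3.75 to 12.1 CPM, led on the mean of the 6 libraries by Csf1r. The 8 stromal markers, led on that mean by Pdgfra, summed to 6.83, 10.2 and 7.53 CPM in controls 1 to 3 and to 1.93, 3.5 and 4.52 CPM in delipidated pools 1 to 3, so every control lay above every delipidated pool. Pdgfra by itself overlapped, at 2.53, 5.02 and 1.6 CPM in controls and 1.93, 3.5 and 0.282 CPM in delipidated pools. The separation of the sums thus rested on the other markers, none of which had more than 48 counts in a library. Among single genes tested, 3.81% were higher in delipidated pools without overlap and 5.05% lower. The 7 markers of oviduct epithelium summed to 84.1 to 228 CPM, of which Epcam alone made 82.5 to 221 CPM. Of 6 sperm markers 5 had counts, led on that mean by Prm2 and with Tnp2 at 0, and their sum was at most 4.79 CPM.

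Counts on single exonic parts showed which of the annotated first exons were represented. Btg4 (ENSMUSG00000032056) is annotated on the plus strand at chr9:51060901-51119875, with 16 exonic parts. The 6 parts nearest the 5′ end, 662 bases or 25.9% of its exonic length, had 0 counts in all 6 libraries. Counts began at chr9:51116001, where the next part of 4 bases had 71, 32 and 160 counts in controls 1 to 3 and 53, 24 and 136 in delipidated pools 1 to 3, and the part after it 495 to 1372. In these embryos, therefore, Btg4 counts came from the downstream start in both groups, and the upstream annotated exons were not detected at this depth. The exonic length used for the level of Btg4 per kb includes these 662 bases.

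Cnot6l (ENSMUSG00000034724, minus strand, chr5:96070333-96164171, 31 parts) has 3 start windows in RefSeq. The first exon at chr5:96161937-96161990 had 100, 81 and 46 counts in controls 1 to 3 and 31, 77 and 213 in delipidated pools 1 to 3. The parts just downstream, from 96161362 to 96161871, which include the alternative first exons, had at most 2 counts each in any library, and the part furthest upstream, at 96164022 to 96164171, had 0 to 9. Cnot6l counts at the 5′ end thus came mainly from a single first exon in all 6 libraries. At the other end of the gene, the last part of 5243 bases had a mean of 4.86% of the counts, and 3.53 to 6.49% of counts lay on the exonic bases nearer to the 3′ end than to the 5′ end. For Btg4 that share was 44.5 to 46.7%, and for Cnot3 87.5 to 97%, where a part of 4005 bases near the 5′ end held 1% of the counts. None of the 10 genes had a share that separated the groups, with exact permutation p from 0.3 to 1 and Benjamini-Hochberg values over the 10 genes of at least 0.778.

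**Figure D3:**
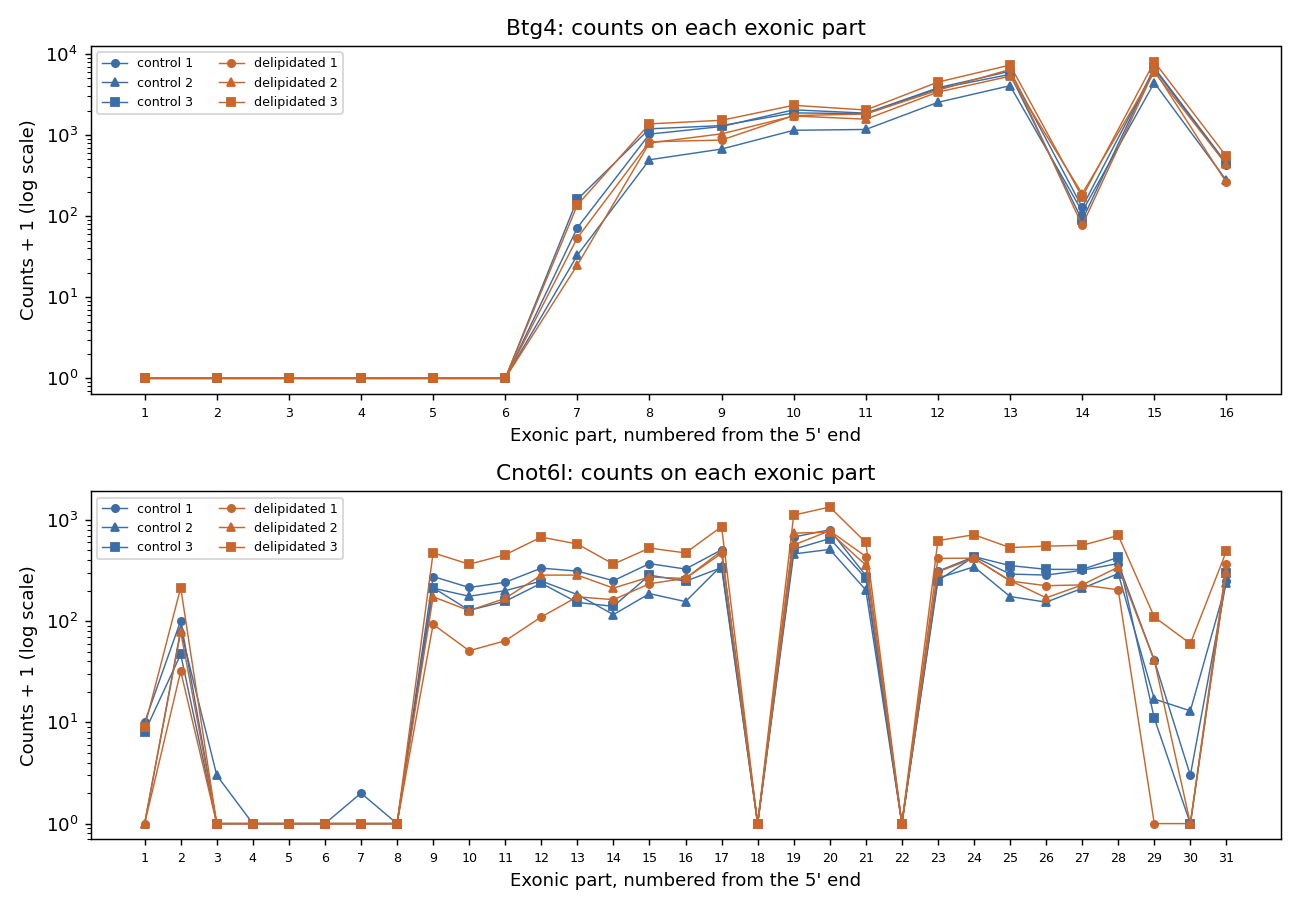
Counts plus 1 on a log axis for each exonic part of Btg4 (16 parts) and Cnot6l (31 parts), numbered from the 5′ end, with control pools in blue and delipidated pools in orange. Parts 1 to 6 of Btg4 are at 0 counts in each library, and in Cnot6l part 2 is the first exon with counts in each library while parts 4 to 6, 8, 18 and 22 are at 0.

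RefSeq (GRCm38.p6) gave a start window for 6 of the 10 genes: Btg4, Cnot6l, Cnot3, Pabpn1l, Dcp1a and Ythdf2. The 250 bases before the start in use are shown for Btg4 and Cnot6l, since these 2 genes varied together across the pools while their start regions differ in composition. Capitals mark CpG dinucleotides. The Btg4 stretch lies at chr9:51115751-51116000 (plus strand) and the Cnot6l stretch at chr5:96161991-96162240 (minus strand), both 5′ to 3′ in the direction of transcription.
Btg4: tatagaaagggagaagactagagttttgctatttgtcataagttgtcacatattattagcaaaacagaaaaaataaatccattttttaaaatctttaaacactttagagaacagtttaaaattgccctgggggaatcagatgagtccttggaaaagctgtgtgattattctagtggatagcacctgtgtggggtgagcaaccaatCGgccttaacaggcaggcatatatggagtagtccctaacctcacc
Cnot6l: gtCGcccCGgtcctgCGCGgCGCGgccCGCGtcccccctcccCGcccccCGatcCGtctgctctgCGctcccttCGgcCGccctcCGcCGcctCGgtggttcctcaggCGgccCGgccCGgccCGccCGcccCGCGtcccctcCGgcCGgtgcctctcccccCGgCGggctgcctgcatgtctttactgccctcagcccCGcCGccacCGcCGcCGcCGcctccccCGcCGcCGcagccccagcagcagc

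The Btg4 stretch held 1 CpG and 38% G+C, and 7.87% of all 32851 windows of this length held fewer CpG. The Cnot6l stretch held 37 CpG and 82.4% G+C, and 97.8% of windows held fewer. Pabpn1l, the other oocyte gene among the 6, held 3 CpG, whereas Cnot3, Dcp1a and Ythdf2 held 22 to 23, beside a median of 6 over all windows. Both strands were also searched for short motifs in the 8 windows of these 6 genes. The NOBOX element spelled TAATTG was in 1 of them, that of Ythdf2, and 7.17% of all windows hold it. A second NOBOX spelling, TAATTA, shares its opening 5 letters and was in 0 of the 8 and in 4.84% of all windows. A further spelling, TAGTTG, was in 0 of the 8 and in 5.69% of all windows. The E-box CACGTG was in 0 of the 8 and in 6.02% of all windows. The TATA box was searched as TATAAA, found in 0 of the 8 and in 12.4% of all windows. A count of 0 says only that these letters are not in these stretches.

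Close relatives of the members were compared within each library as ratios of CPM per kb. Btg4 exceeded every other BTG/TOB gene in all 6 libraries, by 9.76 to 21.6 times for Tob2, the nearest (16.7 to 36.3 by the exonic part with the most counts, below called the part measure). Its ratio to Btg2 was 248, 254 and 180 in controls 1 to 3 and 444, 271 and 468 in delipidated pools 1 to 3, and its ratio to Btg3 was 73.9, 42.4 and 87 beside 93.6, 102 and 110. By the part measure these ratios were 337 to 877 and 111 to 390. Of 13 ratios to relatives, these 2 and that of Zfp36l2 to Zfp36l1 did not overlap between the groups. Among single genes, 3.81% of all genes tested were higher without overlap and 5.05% lower. Each of these ratios had p = 0.1 by exact permutation, the smallest possible, and 0.433 after Benjamini-Hochberg adjustment over the 13. The other 10 had p from 0.4 to 1 by exact permutation. Btg3 and Zfp36l1 by themselves did not overlap between the groups either. The stromal marker sums and the numbers of genes with a count separated the same pools, and the part of either in these ratios was not tested. Cnot6l was at 2.6 to 5.47 times Cnot6 (3.91 to 10.9 by the part measure). Dcp1a was at 15 to 94 times Dcp1b, which had only 12 to 109 counts, and at 2.42 to 30 times by the part measure in the 4 libraries where that part of Dcp1b had counts. Ythdf2 was at 2.49 to 3.58 times Ythdf1 (2.14 to 3.02 by the part measure) and 1.58 to 4.07 times Ythdf3 (1.28 to 2.36). In these pairs the member was thus the more abundant form in each of the 6 libraries. Pabpn1l was the reverse, at 0.0198 to 0.154 times the level of Pabpn1, the widely expressed nuclear poly(A)-binding protein, and at 0 to 0.0576 times by the part measure. The ratio of Cnot7 to Cnot8 was 0.579 to 1.41 by whole genes and 6.96 to 12.6 by the part measure, so their order depended on the measure. The same held for Zfp36l2 and Zfp36, with a ratio of 0.374 to 1.85 by whole genes and 0.181 to 0.962 by the part measure. Zfp36l2 was at 7.95, 35.1 and 18.4 times Zfp36l1 in controls 1 to 3 and at 4.1, 3.76 and 3.35 times in delipidated pools 1 to 3, and at 2.15 to 6.01 times by the part measure in the 4 libraries where that part of Zfp36l1 had counts. Zfp36l1 had at most 29 counts in any library.

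In the wider decay pathway, too, no gene was called in any setting that was run. Of 106 other decay genes in 10 lists, 105 were found (Exosc6 was not analysed here) and 103 passed the filter, which Zfp36l3 and Pabpc6 did not, with 49 higher and 54 lower in delipidated embryos and a median of -0.03 on the log2 scale. With edgeR's quasi-likelihood test and Benjamini-Hochberg adjustment 0 of these were called. The same edgeR test gave 1 of the 103 an unadjusted p under 0.05, beside 463 of all 16020 genes tested. DESeq2 without a filter called 0 of 104 genes and gave 5 an unadjusted p under 0.05, beside 1341 of all 30967 genes tested. Groups did not overlap for 4 genes that were higher and 5 that were lower, beside 3.81% and 5.05% of all genes tested. The gene with the low p was Exosc9, a core subunit of the RNA exosome that digests mRNA from its 3′ end. Exosc9 was at 67.9, 109 and 81.3 CPM in controls 1 to 3 and at 42.1, 34.5 and 64 CPM in delipidated pools 1 to 3. All 3 delipidated pools lay below all 3 controls, with a log2 fold change of -0.88 ± 0.32 (SE) and an adjusted p of 1.00 by edgeR's quasi-likelihood test with Benjamini-Hochberg adjustment. The stromal marker sums and the numbers of genes with a count, given above, were also lower in the same 3 pools, and the part of either in this was not tested. Among the 16 tested genes of its list, 7 were higher and 9 lower, with a median of -0.07 and with Skic3 and Exosc10 as the most abundant per kb.

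Around CCR4-NOT, 7 other subunits split into 4 higher and 3 lower with a median of 0.02 on that scale, led in level by Cnot8 and Cnot2. The 5 other BTG/TOB genes were all lower, at -0.07 ± 0.50 for Btg1, -0.12 ± 0.20 for Tob2, -0.13 ± 0.30 for Tob1, -0.70 ± 0.49 for Btg3 and -0.91 ± 0.67 for Btg2 (SE). Each had an adjusted p of 1.00 by edgeR's quasi-likelihood test with Benjamini-Hochberg adjustment. The groups did not overlap for Btg3. Stromal marker sums and numbers of genes with a count were lower in the same 3 pools, and their part was not tested here either. Other deadenylases, 8 in number and led by Pan3 and Angel2, had a median difference of 0.04. The 17 other genes of decapping and 5′-to-3′ decay, led by Pnrc1 and Lsm7, had a median of -0.03, with 7 higher and 10 lower. Medians of the 10 lists ran from -0.15 to 0.11, and they depended on single pools and on the setting. That of the BTG/TOB genes, -0.13, was -0.57 without delipidated pool 2. It stayed below 0 in every alternative, but these reuse the same libraries and genes, so the constant sign adds no support. With DESeq2 and with edgeR, both without a filter, it was -0.13, beside medians of -0.171 and -0.175 over all genes tested. That of the deadenylases was 0.22 without control 1 and -0.12 by the exonic part with the most counts.

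Among RNA-binding adapters, 8 of 16 tested genes were higher and 8 lower, with a median of 0.03 on the log2 scale and with Khsrp and Pum2 the most abundant per kb. Zfp36, a close relative of Zfp36l2, was at 11.6, 13.2 and 11.8 CPM in controls 1 to 3 and at 3.31, 6.7 and 7.13 CPM in delipidated pools 1 to 3. Its groups did not overlap, and its log2 fold change was -1.10 ± 0.54 (SE) with an adjusted p of 1.00 by edgeR's quasi-likelihood test with Benjamini-Hochberg adjustment. The stromal marker sums and the numbers of genes with a count separated the same way, and their part in this was not tested either. Zfp36l1, the other relative, went in the opposite direction, at 0.844, 0.121 and 0.988 CPM in controls 1 to 3 and 1.28, 1.78 and 1.98 CPM in delipidated pools 1 to 3. Its groups did not overlap either, with a log2 fold change of 1.36 ± 1.36 (SE) and an adjusted p of 1.00 by the same edgeR test and Benjamini-Hochberg adjustment. Poly(A)-binding proteins and their partners, led by Paip1 and Pabpc4, had a median of 0.11 over 7 tested genes, which was 0.25 without control 1 and -0.04 by the exonic part with the most counts. The 13 readers, writers and erasers of N6-methyladenosine, led by Wtap and Zc3h13, had a median of 0.06, which was -0.14 without delipidated pool 3. Genes of zygotic decay, led by Yap1 and Tut7, had a median of -0.15 over 4 genes, which was -0.57 without delipidated pool 1 and 0.05 without delipidated pool 3, and 10 genes of nonsense-mediated decay, led by Upf1, a median of 0.03.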

How the data were processed

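The authors deposited raw counts of reads per exonic part for 6 libraries of total RNA. The submitters' processing notes name bcl2fastq 2.20, Trimmomatic 0.36, STAR 2.5.2b, featureCounts and the mm10 build. Counts of 425461 parts were summed per gene, and 27968 of 33309 parts under joined identifiers were assigned to a single gene with GENCODE annotation; the others held 2.49 to 2.57% of counts. Parts of 4 and 2 bases in Cnot6l held 214 and 250 counts in control 1, so reads appear to be counted in each part they cover; how this was done is not given. The library kit keeps strand, but of 16 pairs of parts with identical coordinates and opposite strand, 6 to 9 per library had at least 10 counts, and in all of these both parts had exactly the same count, so genes that overlap on opposite strands may not be told apart. Genes were filtered (minimum count 10, minimum total count 15), scaled by TMM and tested with edgeR 4.0.16 in R 4.3.3, with limma 3.58.1 and DESeq2 1.42.0 as alternatives. The fit was tested on simulated data, and no result above rests on that test, whose outcome is not reported here. Calls needed an adjusted p under 0.05 and a log2 fold change beyond 1. Correlations used log2(CPM + 0.5). Python 3.11.15 was used for sums, exact permutation tests over all 20 assignments of the libraries, and figures.

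Named genes were the 10 members, their close relatives, the 2 most abundant genes per kb of each list and any with an unadjusted p under 0.05, the leading and the 0-count genes of each marker list, and the 3 genes most correlated with Btg4. A gene that this rule names is not reported here. Zfp36, Btg2 and Btg3 are named as relatives. Members and lists were chosen with earlier results of these data known. Correlations of log2 CPM between pools of a group were 0.888 to 0.923, and no pair of libraries was a duplicate.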

Additional observations from a re-analysis of the deposited data

How the results depend on the processing

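The 10 members were called in 0 of the 15 alternatives (9 members in the setting without joined identifiers, which drops Cnot3), and the lowest adjusted p of any member was 0.718 (Cnot3 and Pabpn1l, edgeR without a filter). Calls over all genes rose from 0 to 9 higher and 40 lower with DESeq2 without a filter and to 5 and 25 with edgeR without a filter, where the median of all genes shifted to -0.171 and -0.175; 30967 genes were then tested. Leaving out single pools gave 0 to 2 of the 10 members without overlap, beside 6.57 to 9.46% of all genes tested higher and 9.23 to 11.6% lower without overlap. It moved the median of the members from 0.05 to between -0.13 (without delipidated pool 3) and 0.24 (without control 1), and single log2 fold changes over these ranges: Btg4 -0.40 to 0.13 (0.13 without control 1, 0.07 without delipidated pool 1), Cnot6l -0.42 to 0.52 (-0.01 without control 2), Cnot7 -0.23 to 0.37 (-0.10 without control 2), Zfp36l2 -1.0 to 0.18, Ythdf2 -0.07 to 0.11 (-0.05 without delipidated pool 1), Cnot1 -0.15 to -0.00, Cnot3 0.17 to 0.50, Dcp1a -0.51 to -0.10 and Dcp2 -0.00 to 0.40. The count of genes at an unadjusted p under 0.05 went from 463 to 993 without delipidated pool 3 and 713 without delipidated pool 1. With the exonic part of most counts in place of the gene sum, the median of the members was -0.06, Cnot7 was at -0.11 and Ythdf2 at -0.09; the cause was not tested. Pools with the same number did not vary together (correlations of deviations -0.11, 0.09 and 0.06), and the fit with the replicate block gave 0 calls, 406 genes at an unadjusted p under 0.05, and log2 fold changes of -0.07 for Btg4, 1.25 for Pabpn1l, -0.38 for Zfp36l2 and 0.11 for Cnot6l (the latter 2 at -0.35 and 0.07 with limma-voom). Over all alternatives the list medians ran from -0.57 to -0.13 for BTG/TOB, -0.57 to 0.07 for zygotic decay, -0.04 to 0.25 for poly(A)-binding, -0.14 to 0.09 for N6-methyladenosine, -0.12 to 0.22 for deadenylases, -0.21 to 0.17 for decapping, -0.10 to 0.11 for CCR4-NOT, -0.07 to 0.17 for nonsense-mediated decay, -0.12 to 0.04 for 3′-to-5′ decay and -0.06 to 0.05 for adapters. Low counts limit Pabpn1l (20 to 177) and Zfp36l2 (83 to 283).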
